A study of Mus musculus with 7 samples.

Results

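Transforming growth factor beta (TGF-beta) signalling was described here through 10 genes in microglia of young and old mice after stroke: the ligands Tgfb1, Tgfb2 and Tgfb3, the latency anchor Nrros, the receptors Tgfbr1 and Tgfbr2, the signal transducers Smad2, Smad3 and Smad4, and the inhibitor Smad7. They were picked by symbol with no threshold on a measured value, though with earlier results of these data known, and all 10 were found among the 50686 genes of the gene tables. The RNA came from 7 libraries, 4 of young and 3 of old male mice, each prepared from microglia sorted by flow cytometry from the forebrain 4 days after a transient occlusion of the middle cerebral artery. The sort gate was CD11b+ CD45low with bright staining by Bodipy, a dye of neutral lipids, so the cells were sorted as lipid-laden microglia, with CD45low set to leave out blood leukocytes but no protein that only microglia carry. Complementary DNA was made by Smart-seq2, a full-length protocol for low input without strand information.

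The Young group (14C, 18C, 23C and 29C) was 3 to 4 months old and the Old group (2posI, 3posI and 4posI) was 21 to 22 months old. All were males of the C57BL/6 background, all had the occlusion under anesthesia with analgesia, and the labels name no drug treatment as part of the design, so the comparison is between ages after ischemia and holds no animal without stroke. Each library was taken as 1 mouse. The total expected count ran from 45379786 to 53002386 in Young and from 36574083 to 46133564 in Old, and the test covered 17559 genes on autosomes whose expected count exceeded 10 somewhere among the libraries, all 10 genes of the pathway among them. Levels are given as CPM, expected counts brought to the same library total and scaled by the trimmed mean of M values (TMM), which compare libraries, and as TPM, brought to the same total after division by length, which compare genes.

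TGF-beta is secreted as a latent complex, held by the propeptide of the ligand and by an anchoring protein, and in microglia that anchor is NRROS. Once freed by integrins, the ligand binds TGFBR2, which recruits and phosphorylates TGFBR1. TGFBR1 in turn phosphorylates SMAD2 and SMAD3, which enter the nucleus with SMAD4, and SMAD7, itself a target, closes the loop by directing the receptor to degradation. In the brain the pathway is known for maintaining the homeostatic program of microglia, with P2ry12 and Tmem119 among the genes that depend on it.

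Stretches of sequence from 2 genes bear on the results below, and the gene models are those of GENCODE vM21 on GRCm38. The first is an exon of 75 bases, exon 2 of the longer of the 2 annotated Tgfbr2 transcripts (chr9:116158271-116158345, minus strand), shown because it is the coding sequence by which the 2 transcripts differ. It adds 25 codons to the part of the gene that encodes the extracellular region and is absent from the shorter transcript.
Tgfbr2 exon 2: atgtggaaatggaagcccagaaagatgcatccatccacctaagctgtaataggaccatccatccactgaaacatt
The other stretches are the 250 bases before the RefSeq start of Tgfb1 (chr7:25686752-25687001, plus strand) and of Tgfbr2 (chr9:116175364-116175613, minus strand), shown because these were the 2 genes lower in Old without overlap between the groups. Both are from GRCm38.p6, and capitals mark GGGCGG or its complement CCGCCC, the GC box bound by the Sp1 family.
Tgfb1 promoter: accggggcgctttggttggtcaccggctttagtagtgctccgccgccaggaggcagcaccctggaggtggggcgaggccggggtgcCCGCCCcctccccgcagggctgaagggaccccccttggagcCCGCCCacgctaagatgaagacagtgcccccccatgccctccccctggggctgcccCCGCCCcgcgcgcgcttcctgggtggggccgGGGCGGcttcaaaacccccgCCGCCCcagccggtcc
Tgfbr2 promoter: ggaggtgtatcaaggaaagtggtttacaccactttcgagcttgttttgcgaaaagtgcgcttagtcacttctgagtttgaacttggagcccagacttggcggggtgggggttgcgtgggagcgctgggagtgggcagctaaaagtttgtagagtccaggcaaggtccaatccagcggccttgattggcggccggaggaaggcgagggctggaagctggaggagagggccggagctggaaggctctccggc
The Tgfb1 stretch held 5 GC boxes and was 75.2% G and C, and the Tgfbr2 stretch held 0 and was 58.4% G and C. Of the 32817 promoters of the same length in the RefSeq table, 32.7% held at least 1 such box on either strand. Of the 10 genes 6 had an entry, with 2 entries for Tgfbr1, and among these 7 stretches the box was also present in that of Smad3 (2 boxes) and in 1 of those of Tgfbr1 (2 boxes). The AP-1 site TGANTCA and the palindromic Smad element GTCTAGAC, also searched on both strands, were in 0 of the 7, against 6.75% and 0.168% of all promoters. A match of letters is a description of the sequence and not evidence of binding.

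The libraries were first compared for cell type markers, since 1 of them stood apart. The summed TPM of 10 microglial markers was 15764, 20364, 14197 and 17332 in Young and 14646, 6799 and 15738 in Old, in the order of libraries given above, which is kept throughout. The Old 3posI library thus had the lowest sum. It also had the highest sum of 10 markers of infiltrating monocytes and macrophages, 3956, against 94.9 to 404 in the 4 Young libraries and 297 and 218 in the other Old libraries, with Chil3 the most abundant. Border-associated macrophage markers summed to 1775 in Old 3posI and to between 160.04 and 547 in the other 6, with Ms4a7 the most abundant. Every defining marker of both macrophage lists was above 0 in at least 1 library. Values that rest on Old 3posI are therefore given with and without it.

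A second difference lay between the groups and not in 1 library. The 10 endothelial markers summed to 103, 66.7, 137 and 112 TPM in Young and to 49.9, 58.6 and 41.8 in Old, without overlap (two-sided exact permutation test, p = 0.0571), with Cldn5 the most abundant. Of the 9 of them tested, 7 had a fold change below 0 (48.8% of all genes tested had one above 0) and 1, Slco1a4, passed the test. Markers of pericytes and fibroblasts, with Dcn the most abundant and Kcnj8 under 1 TPM in all libraries, summed to 115 in Young 23C and to between 11.9 and 32.9 elsewhere (exact permutation test, p = 0.229). Sums for astrocytes (p = 0.429), oligodendrocytes (p = 0.657), neurons (p = 0.286), T and NK cells (p = 0.0857), B cells (p = 0.571), neutrophils (p = 0.286) and platelets (p = 0.514) overlapped between the groups by the same exact test. The T and NK sum averaged 2.94 TPM in Young and 7.29 in Old, and all 9 of its genes tested had a fold change above 0. Lck, Nkg7, Cd8a and Trac were higher in Old without overlap in CPM (beside 8.67% of all genes tested). None passed the test, and the smallest adjusted p was that of Cd8a (edgeR, 0.0565). Cd4, the most abundant, was highest in Young 23C at 4.78 TPM. Of all markers searched, the B cell gene Pax5 was listed at 0 in every library. The part of other cells in the results below was not tested, and in bulk RNA a smaller number of cells of a type cannot be told apart from less RNA in each.

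**Figure D1:**
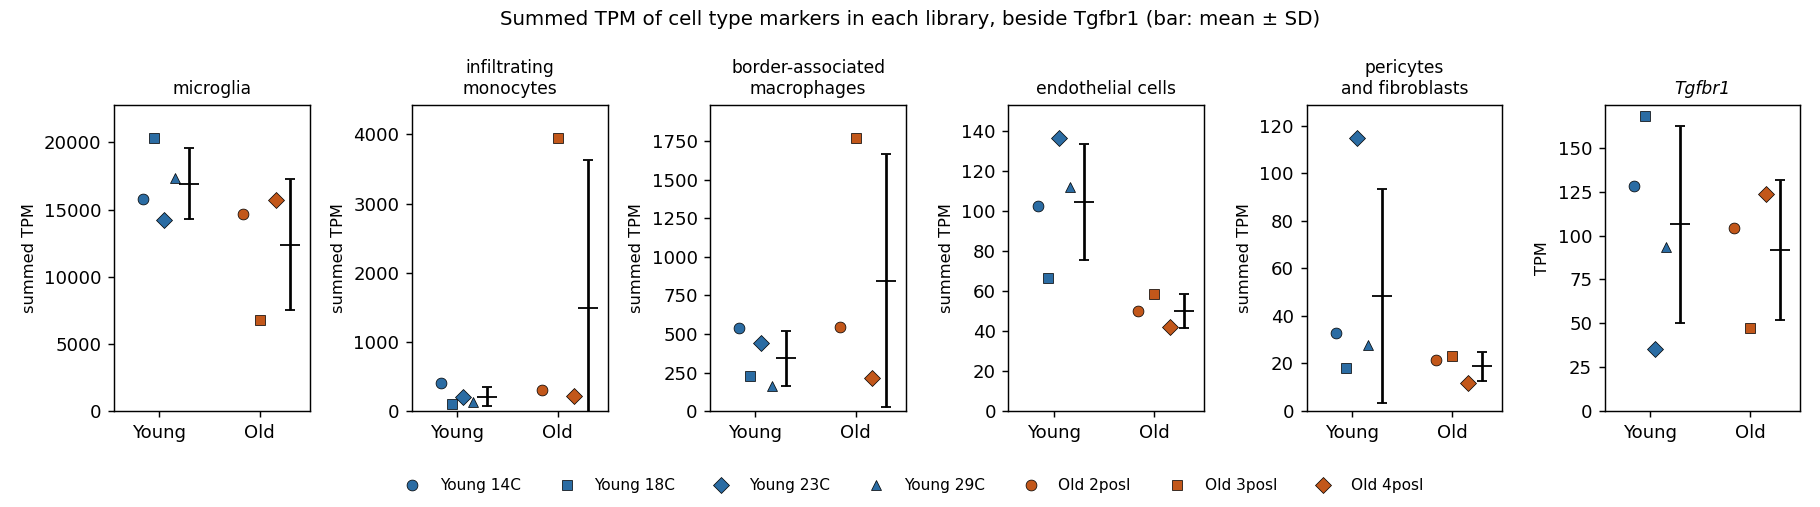
Summed TPM of marker genes of 5 cell types in each library, and the TPM of Tgfbr1, on linear axes from 0; points are libraries (Young blue, Old orange) and bars are the mean ± SD. Old 3posI is lowest for microglial markers and highest for both macrophage lists, and the lowest Tgfbr1 values are those of Young 23C and Old 3posI.

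No gene of the 10 passed an adjusted p of 0.05 between Old and Young in the quasi-likelihood test of edgeR, adjusted by Benjamini-Hochberg over all genes tested, where 141 of 17559 genes, 0.803%, did. At an unadjusted p under 0.05 there were 4 of 10, against 18.9% of all genes. By DESeq2, which called 9.51% of the genes it gave an adjusted p, there were 3 of 10 (Tgfb1, Tgfbr2 and Smad4). The CPM of the groups did not overlap for those same genes: Tgfb1 and Tgfbr2 were lower in every Old library than in any Young library, and Smad4 was higher. Among all genes tested 17.7% showed no overlap, 8.67% higher and 9.07% lower in Old. The fold change was above 0 for 5 genes, beside 48.8% of all genes tested, and below 0 for 5. The median log2 fold change was -0.02 beside -0.01 over all genes tested.

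**Figure D2:**
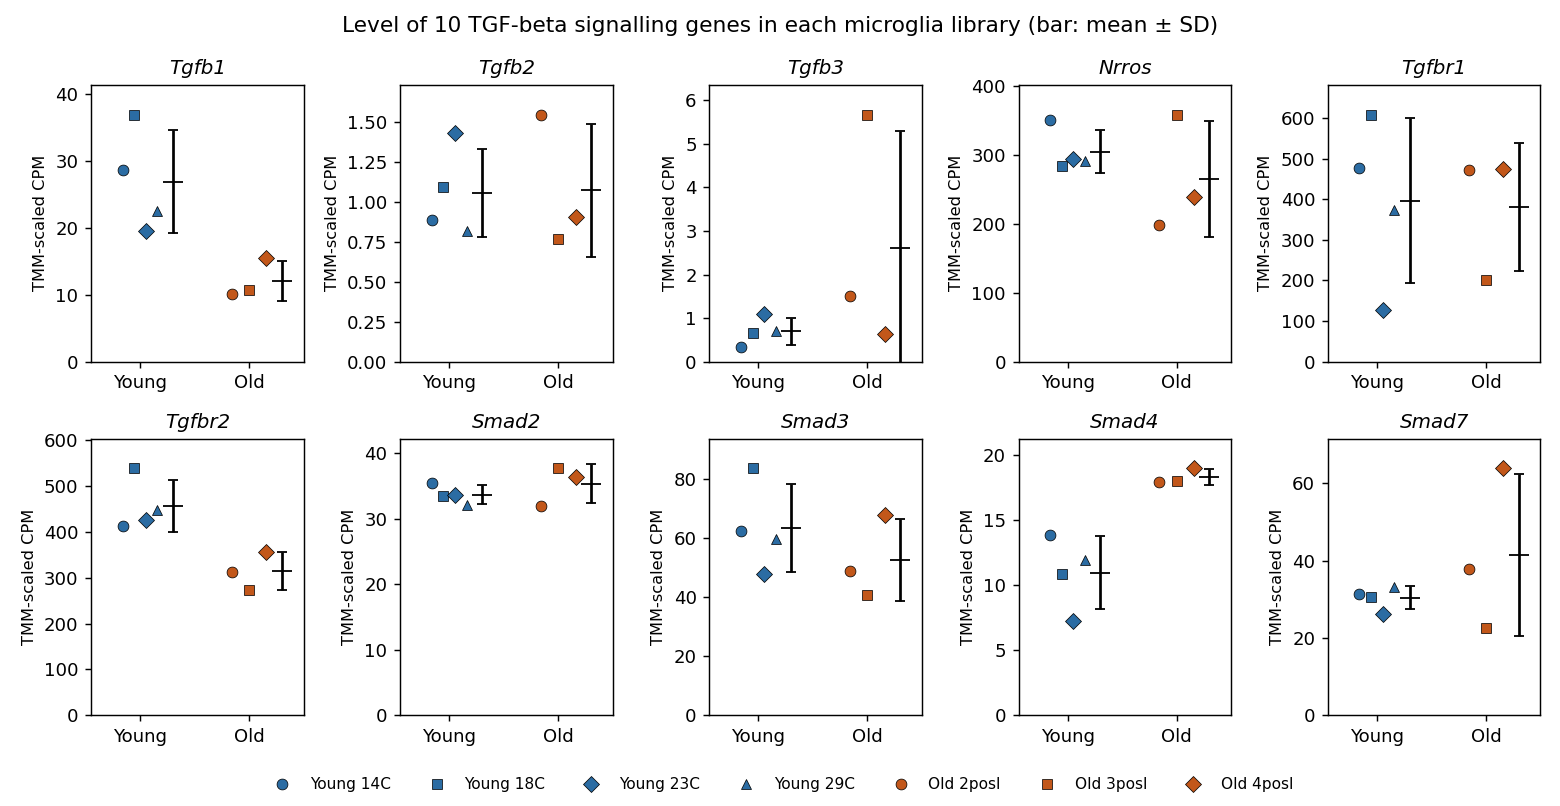
TMM-scaled CPM of the 10 genes in each library, on linear axes from 0 that differ between genes; points are libraries (Young blue, Old orange) and bars are the mean ± SD of 4 Young and 3 Old libraries. The groups separate for Tgfb1, Tgfbr2 and Smad4, and for Tgfb3 the highest value, 5.67, is that of Old 3posI.

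Of the ligands, Tgfb1 (ENSMUSG00000002603, chr7:25687002-25705077, plus strand), the isoform that immune cells make most, was by far the best represented. Its CPM was 28.7, 36.9, 19.5 and 22.5 in Young and 10.0, 10.7 and 15.5 in Old. The highest Old library, 4posI, lay below the lowest Young library, 23C. The Young mean of 26.9 ± 7.69 (SD, n = 4) and the Old mean of 12.1 ± 3.00 (SD, n = 3) gave a log2 fold change of -1.15 ± 0.26 (SE), with a 95% interval from -1.74 to -0.57 and an adjusted p of 0.0778 (edgeR). In TPM the libraries were 26.3, 34.3, 18.4 and 21.8 against 6.91, 8.32 and 12.4, also without overlap (exact permutation test, p = 0.0286, the smallest that 35 assignments allow). The adjusted p of Tgfb1 passed 0.05 by DESeq2 (0.00137), without a filter on low counts (edgeR, 0.0390, where 1.05% of all genes passed) and with the effective length of the gene as an offset (edgeR, log2 fold change -1.36, 0.0425, where 1.21% passed), and in the other 8 of 11 settings, and with any 1 of the 7 libraries left out, it did not, its range over the 11 settings being 0.00137 to 0.0941. Its expected counts, 991.66 to 1648.92 in Young and 337 to 719 in Old, were whole (within 0.001) in 4 of the 7 libraries, and counts that are not whole arise where RSEM shares reads between genes.

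Tgfb2 and Tgfb3 were at the edge of detection. Tgfb2, which astrocytes and neurons are known to make, had 41, 49, 73 and 38 expected counts in Young and 52, 30 and 42 in Old. The mean CPM was 1.06 ± 0.28 (SD, n = 4) for Young, 1.07 ± 0.42 (SD, n = 3) for Old, and the groups overlapped (log2 fold change 0.02 ± 0.40 SE, edgeR adjusted p = 0.988). Its interval, -0.89 to 0.92, covers differences of either sign.

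Tgfb3 had 16, 29, 56 and 33 expected counts in Young and 51, 222 and 29 in Old. The 222 were in Old 3posI, the library with the most monocyte marker RNA, while Old 4posI lay inside the Young range. Its CPM was 0.346, 0.649, 1.10 and 0.710 in Young and 1.52, 5.67 and 0.626 in Old, and on that scale Old 2posI, the library with the smallest total, lay above the Young range too. The log2 fold change was 1.89 ± 0.71 (SE; edgeR adjusted p = 0.203) with Old 3posI and 0.60 without it. Tgfb3 (chromosome 12) overlaps Ttll5 on the other strand, a gene with 169 to 473 expected counts. Since the libraries carry no strand, reads where the 2 genes overlap cannot be told apart by strand. The expected counts of Tgfb3 were whole (within 0.001) in 7 of the 7 libraries. Whether reads of Ttll5 entered them was not tested.

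Nrros (ENSMUSG00000052384, chr16:32142785-32165594, minus strand), the anchor that holds latent TGF-beta1 on microglia and other myeloid cells, was the most abundant of the 10 genes per length. It stood at 213, 178, 177 and 167 TPM in Young and at 106, 194 and 146 in Old, above 95.6% of the genes tested. Its CPM was 350.3, 284, 294 and 291 in Young and 198, 358 and 239 in Old. Old 3posI was the highest of the 7 libraries and the other Old libraries were the lowest, so that all Young libraries lay inside the Old range. The log2 fold change was -0.20 ± 0.21 (SE; edgeR adjusted p = 0.630), and leaving out 1 library moved it between -0.48 (without Old 3posI) and -0.03 (without Old 2posI).

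The 2 receptor chains were both expressed at a high level but spread differently among libraries. Tgfbr2 (ENSMUSG00000032440, chr9:116084293-116175360, minus strand), the ligand-binding chain, had a CPM of 413, 539, 425 and 448 in Young and 313, 272 and 356 in Old. All Old libraries lay below all Young libraries. The log2 fold change was -0.54 ± 0.15 (SE), with a 95% interval from -0.89 to -0.19 and an adjusted p of 0.130 by edgeR, and it stayed between -0.64 and -0.45 when any 1 library was left out. Over 11 other settings the adjusted p ran from 0.0160 (DESeq2) to 0.142. In TPM the difference was wider, 138 ± 20.4 (SD, n = 4) against 79.1 ± 17.6 (SD, n = 3), again without overlap (exact permutation test, p = 0.0286).

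Tgfbr1 (ENSMUSG00000007613, chr4:47353222-47414931, plus strand), the kinase that phosphorylates SMAD2 and SMAD3, had a CPM of 476, 608, 127 and 374 in Young and 471, 200.1 and 474 in Old. It was low in 1 library of each group, Young 23C and Old 3posI, and the remaining Old libraries sat inside the range of the remaining Young ones. The log2 fold change was -0.05 ± 0.49 (SE; edgeR adjusted p = 0.964), with an interval from -1.17 to 1.06, so that a difference of either sign and of about that size was not detectable here. The same 2 libraries were the lowest for P2ry12, the purinergic receptor that marks homeostatic microglia, whose TPM was 947, 1476, 356 and 948 in Young and 983, 239 and 904 in Old. Young 23C and Old 3posI were also lowest for Tmem119, at 672 and 498 TPM among values that reached 1520 in Young 18C. Young 23C did not share the high monocyte marker sum of Old 3posI, its own being 208. Whether these values are linked was not tested.

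Of the Smads, Smad2 was the steadiest gene of the 10. Its CPM was 35.5, 33.5, 33.7 and 32.1 in Young and 32.0, 37.7 and 36.4 in Old. The highest and lowest of the 7 libraries differed by a factor of 1.18, and the log2 fold change was 0.07 ± 0.11 (SE; edgeR adjusted p = 0.771), with an interval from -0.18 to 0.32. Smad3, the second receptor-activated Smad, had a CPM of 62.4, 83.7, 47.8 and 59.7 in Young and 48.9, 40.9 and 67.8 in Old. Its groups overlapped in CPM, and the log2 fold change was -0.27 ± 0.23 (SE; edgeR adjusted p = 0.548), or -0.56 with effective length as an offset. Leaving out 1 library moved the -0.27 to between -0.50 (without Old 4posI) and -0.10 (without Young 18C), with -0.12 without Old 3posI. In TPM Smad3 averaged 23.5 ± 6.72 over the 4 Young and 14.97 ± 4.69 over the 3 Old libraries (SD), with overlap (exact permutation test, p = 0.143). Smad1 and Smad5, which serve the bone morphogenetic protein (BMP) branch and were set beside them, had log2 fold changes of 0.17 ± 0.15 and -0.02 ± 0.18 (SE), with adjusted p of 0.565 and 0.967 by edgeR.

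Smad4, the partner that both branches share, had a CPM of 13.9, 10.9, 7.22 and 11.9 in Young and 17.9, 18.0 and 19.0 in Old. Each Old library lay above each Young library, and the Old libraries were close together (SD 0.60 CPM, n = 3). The log2 fold change was 0.74 ± 0.21 (SE), with a 95% interval from 0.26 to 1.22 and an edgeR adjusted p of 0.131, which ran from 0.0258 (DESeq2) to 0.306 over 11 other settings. In TPM the separation was thin, since the highest Young library had 6.81 and the lowest Old library 6.84, and the exact permutation test, which takes the difference of means in either direction, gave p = 0.114.

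Smad7, the inhibitory Smad, had a CPM of 31.5, 30.6, 26.3 and 33.2 in Young and 37.8, 22.6 and 63.9 in Old. The 4 Young libraries were close together, and the Old libraries fell on both sides of them. The log2 fold change of 0.45 ± 0.30 (SE; edgeR adjusted p = 0.444) rested on Old 4posI, without which it was -0.01. Set against Smad3 within each library, Smad7 amounted to 0.490, 0.316, 0.520 and 0.498 of the TPM of Smad3 in Young and to 0.811, 0.612 and 1.09 in Old, without overlap. In CPM the same ratio was 0.505, 0.366, 0.551 and 0.557 in Young and 0.774, 0.552 and 0.943 in Old, and Old 3posI fell inside the Young range. The ratios of Smad3 to Smad2 and of Tgfbr1 to Tgfbr2, also taken, overlapped between the groups in TPM (exact permutation test, p = 0.143 and 0.314) and in CPM.

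**Figure D3:**
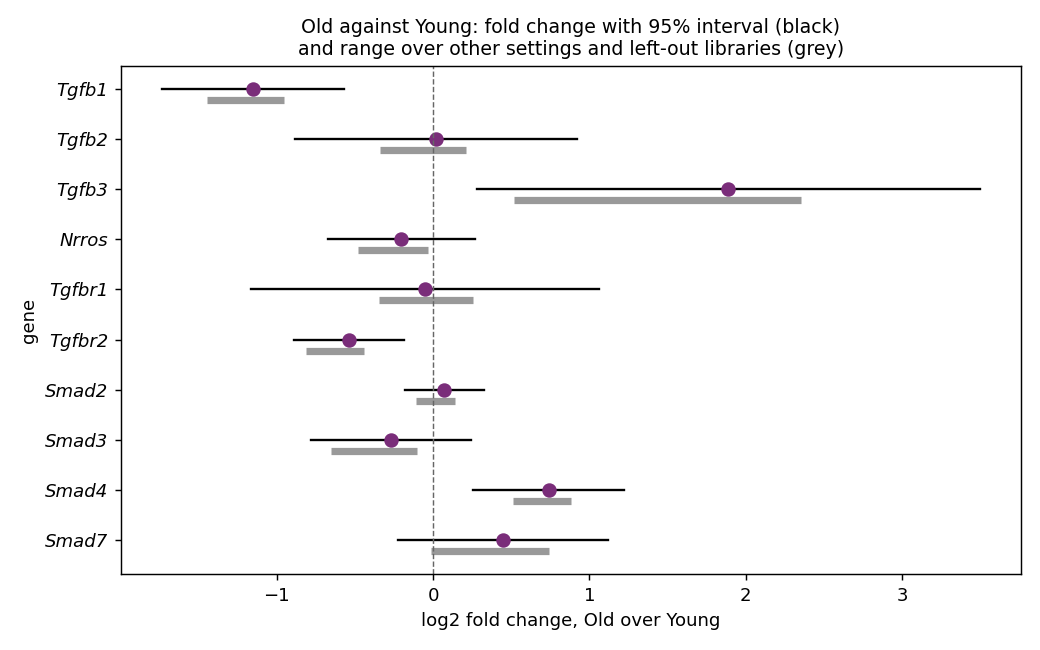
Log2 fold change of Old over Young for the 10 genes (points) with the 95% interval of edgeR's quasi-likelihood fit (black lines), and below each the range over 11 other settings and 7 fits that leave out 1 library (grey bars). The intervals of Tgfb1, Tgfb3, Tgfbr2 and Smad4 lie to one side of 0 before adjustment, and that of Tgfbr1 is the widest among the abundant genes.

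The order of the 10 genes by mean TPM in Young was Nrros (184), Tgfbr2 (138), Tgfbr1 (106), Tgfb1 (25.2), Smad3 (23.5), Smad2 (21.2), Smad7 (10.3), Smad4 (5.34), Tgfb2 (0.583) and Tgfb3 (0.295). Neighbours whose libraries overlapped were Nrros with Tgfbr2, Tgfbr2 with Tgfbr1, Tgfb1 with Smad3, Smad3 with Smad2, and Tgfb2 with Tgfb3. The receptors and Nrros thus formed an upper tier, separate from Tgfb1 and the Smads, and Tgfb2 and Tgfb3 a lowest tier that overlapped with no other gene. The same tiers held in Old, where the order was Nrros (149), Tgfbr1 (91.8), Tgfbr2 (79.1), Smad2 (19.7), Smad3 (14.97), Smad7 (13.3), Tgfb1 (9.22), Smad4 (7.87), Tgfb3 (0.997) and Tgfb2 (0.450). Tgfb1 stood above Smad3 in Young and below Smad7 in Old, where its range met those of Smad3, Smad7 and Smad4. Its TPM as a ratio to that of its anchor Nrros was 0.124, 0.193, 0.104 and 0.131 in Young and 0.0654, 0.0428 and 0.0850 in Old.

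The tables also give a length for each gene, the mean of its transcripts weighted by their estimated abundance in that library, and this length differed between the groups for several of the 10 genes. The measure was taken up after the values had been seen. Of the 9 genes with more than 1 annotated transcript, 4 were longer in each Old library than in any Young library (Tgfb1, Tgfbr1, Tgfbr2 and Smad3) and 0 were shorter. Of 9258 genes with more than 1 transcript and a mean above 1 TPM, 15.6% were longer in Old without overlap, and the median log2 ratio of lengths over them was 0.01, with 58.8% of them longer in Old. Tgfb2, among the 9 genes above, had a mean of 0.526 TPM and so lay under that cut, and its lengths overlapped. From Young to Old, Smad3 went from 3821 ± 193 bases (SD, n = 4) to 4668 ± 216 (SD, n = 3), Tgfb1 from 1526 ± 89.2 to 1779 ± 86.1, and Tgfbr1 from 5215 ± 87.3 to 5505 ± 60.4 (each exact permutation test p = 0.0286). TPM divides by this length, and Tgfb1, Tgfbr2 and Smad3 differed more in TPM than in CPM.

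For Tgfbr2 the length can be read as a split between its 2 transcripts, on the assumption that their lengths in the annotation of the files were those of GENCODE vM21. The longer (ENSMUST00000061101, 8092 bases, 8 exons) holds the exon printed above and a last exon that runs 4636 bases further, while its first exon starts a little further downstream, and the shorter (ENSMUST00000035014, 3476 bases, 7 exons) holds neither. The gene length of 4569, 4659, 4612 and 4764 bases in Young and 5660, 5013 and 5152 in Old implied that the longer transcript made up 23.7%, 25.6%, 24.6% and 27.9% of Tgfbr2 in Young and 47.3%, 33.3% and 36.3% in Old. The shares did not overlap (25.5% ± 1.81 against 39.0% ± 7.38, SD, n = 4 and 3, exact permutation test, p = 0.0286). Since the share is a rescaling of the gene length, already seen to separate the groups, this p repeats the comparison of lengths and adds nothing to it. Applied to the TPM of the gene, the shares gave 35.1 ± 5.65 and 30.5 ± 6.62 TPM for the longer transcript, with overlap (p = 0.457, exact). For the shorter they gave 103 ± 15.4 and 48.6 ± 13.8, without overlap (p = 0.0286, exact). The TPM of the gene and the share of the shorter transcript were each lower in every Old library. Their product therefore had to separate the groups, and this p adds nothing to those comparisons either. The 2 transcripts differ in exon 2, at the 3′ end and at the 5′ end, and the gene length does not say at which of them the reads differed, nor whether RNA quality, which was not measured in these files, moved with it.

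**Figure D4:**
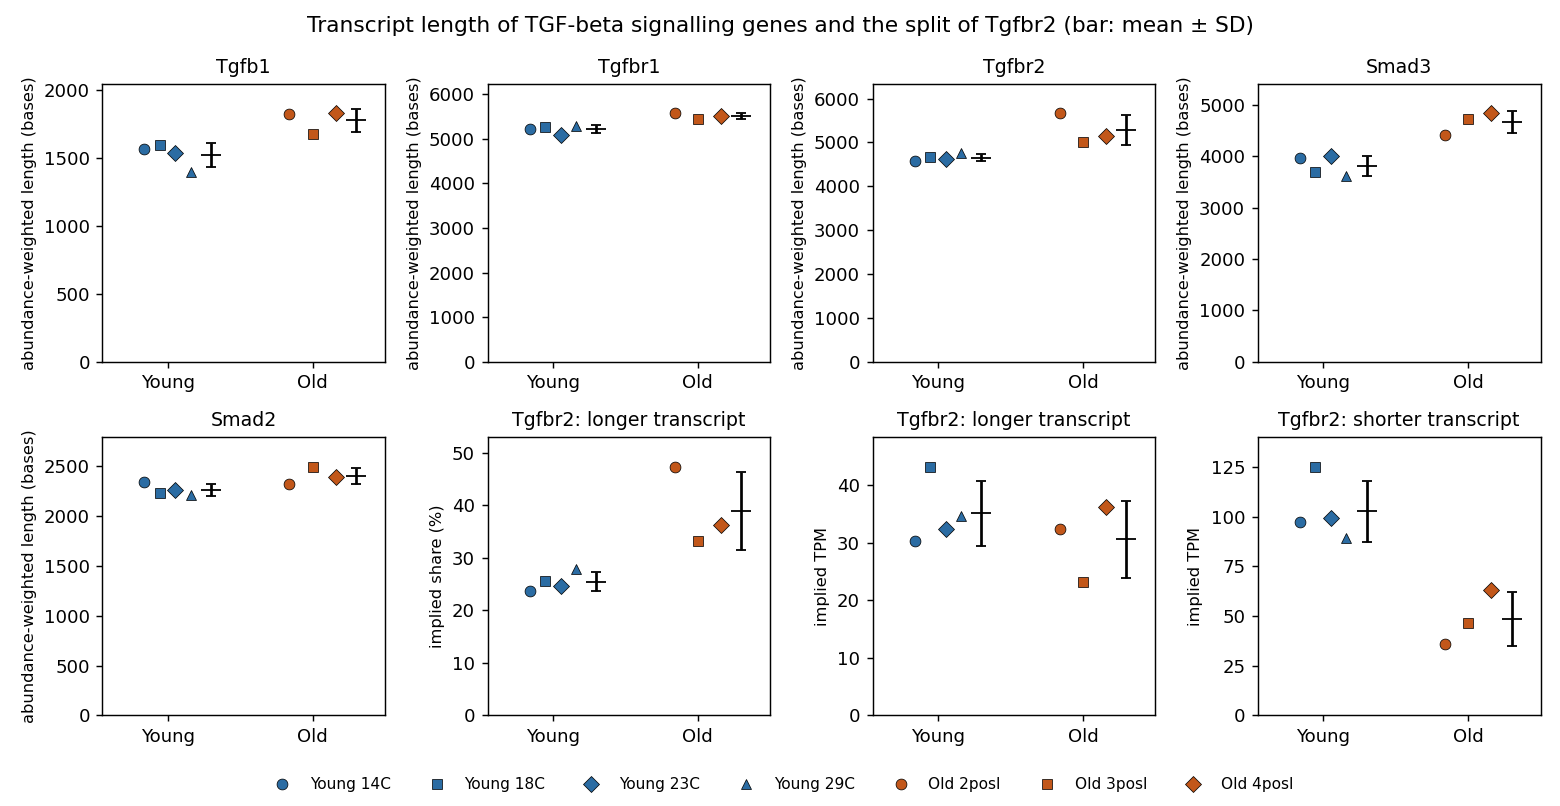
Abundance-weighted length of 5 genes in bases, the implied share of the longer Tgfbr2 transcript in percent, and the implied TPM of its longer and shorter transcripts, in each library on linear axes from 0; bars are the mean ± SD. Lengths separate Old from Young for Tgfb1, Tgfbr1, Tgfbr2 and Smad3 but not for Smad2. The implied TPM of the longer Tgfbr2 transcript overlaps. That of the shorter separates, which the gene's TPM and length had fixed in advance.

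The wider pathway was described through 10 lists by role, 126 different genes with the 10 among them, of which 117 were tested. Counts by direction in these lists stand beside 48.8% of all genes tested with a fold change above 0. An adjusted p of 0.05 was passed by 1 gene higher and 1 lower in Old (1.71% of the 117, beside 0.803% of all genes; 0.57% of all genes were called higher and 0.233% lower). The gene that rose was Rock1, a serine/threonine kinase that acts on the actin cytoskeleton, listed in the Smad-independent arm. Its CPM was 39.3, 38.2, 36.9 and 45.5 in Young and 72.6, 59.9 and 63.0 in Old, a log2 fold change of 0.70 ± 0.12 (SE; edgeR adjusted p = 0.0472). The gene that fell was Bmp1, a metalloprotease that cleaves procollagens and latent TGF-beta binding proteins, with a CPM of 8.16, 9.15, 12.4 and 8.99 in Young and 3.34, 3.19 and 4.92 in Old and a log2 fold change of -1.34 ± 0.24 (SE; edgeR adjusted p = 0.0495). Both calls sat at the threshold: with 1 library left out Rock1 passed only without Old 3posI, its adjusted p running from 0.0463 to 0.164, and Bmp1 did not pass, running from 0.0501 to 0.145.

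Upstream of the receptor, 8 of the 12 genes of ligands and latency had a fold change below 0 and 0 passed the test, with a median log2 fold change of -0.63. With 1 library left out that median ran from -0.82 (without Young 18C) to -0.02 (without Young 23C), and it was -0.28 without Old 2posI and -0.27 without Old 4posI. Beside Tgfb1 and Tgfb3, Ltbp4, a latent TGF-beta binding protein of the matrix, had the smallest p, with a Young CPM of 3.76 ± 1.40 (SD, n = 4) and an Old CPM of 1.71 ± 0.72 (SD, n = 3) (edgeR adjusted p = 0.192). Of 10 activators tested, 0 passed, with a median of 0.35 that was 0.05 without Old 3posI. Integrin beta 3 (Itgb3) had a CPM of 44.1, 55.7, 28.5 and 49.2 in Young and 25.9, 9.56 and 30.4 in Old (log2 fold change -1.02, edgeR adjusted p = 0.203; -0.66 without Old 3posI). The integrin alpha V chain (Itgav), its partner, had a log2 fold change of 0.51 (0.27 without Old 3posI), and the protease Mmp9 of 2.15 (0.07 without it). The groups overlapped for all 3 genes.

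At the membrane, 0 of the 10 receptors and co-receptors passed the test, and the median was -0.18 (from -0.33 without Old 3posI to -0.13 without Young 18C). After Tgfbr2 the smallest p were those of Tgfbrap1, a receptor-associated protein that binds SMAD4, with a CPM of 33.7 ± 5.43 (SD, n = 4) for Young and 25.6 ± 2.69 (SD, n = 3) for Old, without overlap (edgeR adjusted p = 0.220), and of Vasn, a trap of TGF-beta, at 2.09 ± 0.92 and 0.960 ± 0.353 CPM with overlap (edgeR adjusted p = 0.240).

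Between receptor and nucleus, several partners and inhibitors were higher in Old without overlap but short of the threshold. Smad2, Smad3 and Smad4, taken as a list, gave 0 calls and a median of 0.07 (0.02 to 0.14 with 1 library left out). That median turned to -0.11 by limma on log2(TPM + 0.1) or log2(TPM + 1), and to -0.0081 with effective length as an offset. Of 10 Smad anchors and transcription partners 0 passed, 4 were higher and 1 lower without overlap (beside 8.67% and 9.07% of all genes tested), and the median was 0.20 (from 0.13 without Young 29C to 0.31 without Young 18C). The acetyltransferase Crebbp, a co-activator of SMAD3, had a CPM of 73.5, 70.5, 60.6 and 74.6 in Young and 99.0, 98.1 and 112 in Old (log2 fold change 0.56 ± 0.12 SE, edgeR adjusted p = 0.0672). It passed at a log2 fold change of 1.49 once effective length entered as an offset (edgeR adjusted p = 0.00700), and in 4 of 11 settings in all, over which the adjusted p ran from 0.000859 to 0.0867. The transcription factor Sp1 stood at 15.3 ± 3.21 CPM (SD, n = 4) and 26.8 ± 3.58 (SD, n = 3), with an edgeR adjusted p of 0.0851. Runx3, a partner of SMAD3 that lymphoid and monocyte-derived cells express, had 45.7 CPM in Old 3posI against 6.88 and 5.25 in the other Old libraries and 0.626 to 3.05 in Young, and its log2 fold change of 3.40 was 1.73 without Old 3posI.

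Of 14 inhibitors 0 passed, and 8 had a fold change above 0 (beside 48.8% of all genes tested). In CPM 4 were higher in Old without overlap (beside 8.67% of all genes tested). The median of the list was 0.43 (0.22 without Old 3posI and 0.22 without Old 4posI). Ski, a co-repressor that binds the Smads, had a CPM of 117, 130, 112 and 134 in Young and 171, 170.1 and 209 in Old (log2 fold change 0.58 ± 0.13 SE, edgeR adjusted p = 0.0798). Ppm1a, a phosphatase of SMAD2 and SMAD3, stood at 10.9 ± 1.298 CPM (SD, n = 4) and 17.1 ± 0.77 (SD, n = 3), and the ubiquitin ligase Smurf2 at 13.3 ± 2.32 and 21.6 ± 0.93. Their edgeR adjusted p were 0.0801 and 0.0895, and all 3 passed 0.05 by DESeq2 (smallest adjusted p over the settings 0.00167 for Ski, 0.00204 for Ppm1a and 0.00528 for Smurf2).

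In the Smad-independent arm, where Rock1 rose, the kinase Map3k7 (TAK1) and its activator Tab1 lay on opposite sides. Map3k7 had a CPM of 14.6, 12.4, 12.8 and 15.4 in Young and 22.4, 20.1 and 22.4 in Old (log2 fold change 0.65 ± 0.13 SE, edgeR adjusted p = 0.0669). Tab1 had a CPM of 22.1, 22.1, 23.5 and 22.4 in Young and 15.1, 16.6 and 15.5 in Old (log2 fold change -0.52 ± 0.12 SE, edgeR adjusted p = 0.0798). Neither pair of groups overlapped. Tab2, the other adaptor of Map3k7 in the list and named after its values were seen, lay on the side of Map3k7, with a CPM of 45.6, 56.4, 39.1 and 41.7 in Young and 83.8, 64.0 and 66.4 in Old (log2 fold change 0.64 ± 0.16 SE, edgeR adjusted p = 0.0972). The list's median was 0.13 (0.11 to 0.24 with 1 library left out), which turned to -0.05 on the log2(TPM + 0.1) scale.

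Downstream, 0 of 15 targets known from many cell types passed, with 10 below 0 and a median of -0.35 that ran from -0.46 (without Young 18C) to -0.02 (without Young 23C) with 1 library left out and was -0.15 without Old 2posI. Cdkn1a, the cyclin-dependent kinase inhibitor p21, had a CPM of 337, 260.1, 334 and 381 in Young and 417, 642 and 519 in Old, without overlap (log2 fold change 0.68 ± 0.19 SE, edgeR adjusted p = 0.123). Tsc22d1, a leucine zipper protein induced by TGF-beta, stood at 31.1 ± 5.01 CPM (SD, n = 4) and 21.9 ± 2.25 (SD, n = 3), without overlap (edgeR adjusted p = 0.161). Col1a1, a collagen of fibroblasts, had 94.2 CPM in Young 23C, the library with the highest sum of pericyte and fibroblast markers (a sum that counts Col1a1 itself), 9.73 to 24.3 in the other Young libraries and 0.149, 8.15 and 0.993 in Old (edgeR adjusted p = 0.181).

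Of the microglial genes known to need TGF-beta, 15 of 16 were tested (Gpr34 lies outside the autosomes) and 0 passed. Of these 15, 12 had a fold change below 0, while 48.8% of all genes tested had one above 0. The median of the 15, -0.36, was -0.04 without Old 3posI and -0.59 without Old 2posI. Fcrls, an Fc receptor-like gene of microglia, had a CPM of 3477, 3747, 4178 and 4212 in Young and 3090, 1550.5 and 2514 in Old, without overlap (log2 fold change -0.71 ± 0.25 SE, edgeR adjusted p = 0.176; -0.48 without Old 3posI). Csf1r, the receptor on which microglial survival depends, was lowest in Old 3posI at 2049 CPM and second lowest in Young 23C at 3513, against 3789 to 6338 elsewhere (log2 fold change -0.63, edgeR adjusted p = 0.288; -0.38 without Old 3posI). Mertk, a receptor for apoptotic cells, stood at 263 ± 46.0 CPM (SD, n = 4) and 205 ± 40.0 (SD, n = 3), with overlap (edgeR adjusted p = 0.335).

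In the BMP and activin branch 18 of 24 genes were tested and 17 did not pass, with a median of -0.19 that ran from -0.26 (without Old 4posI) to -0.07 (without Young 18C), and was -0.08 without Old 2posI. Beside Bmp1, which belongs to the branch by name and is a protease, the BMP receptor Bmpr2 had a CPM of 31.0, 40.2, 27.0 and 41.7 in Young and 58.4, 45.3 and 53.5 in Old, without overlap (log2 fold change 0.58 ± 0.18 SE, edgeR adjusted p = 0.142). Chrd, which encodes the BMP antagonist chordin, did not exceed 0.258 CPM in any library.

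**Figure D5:**
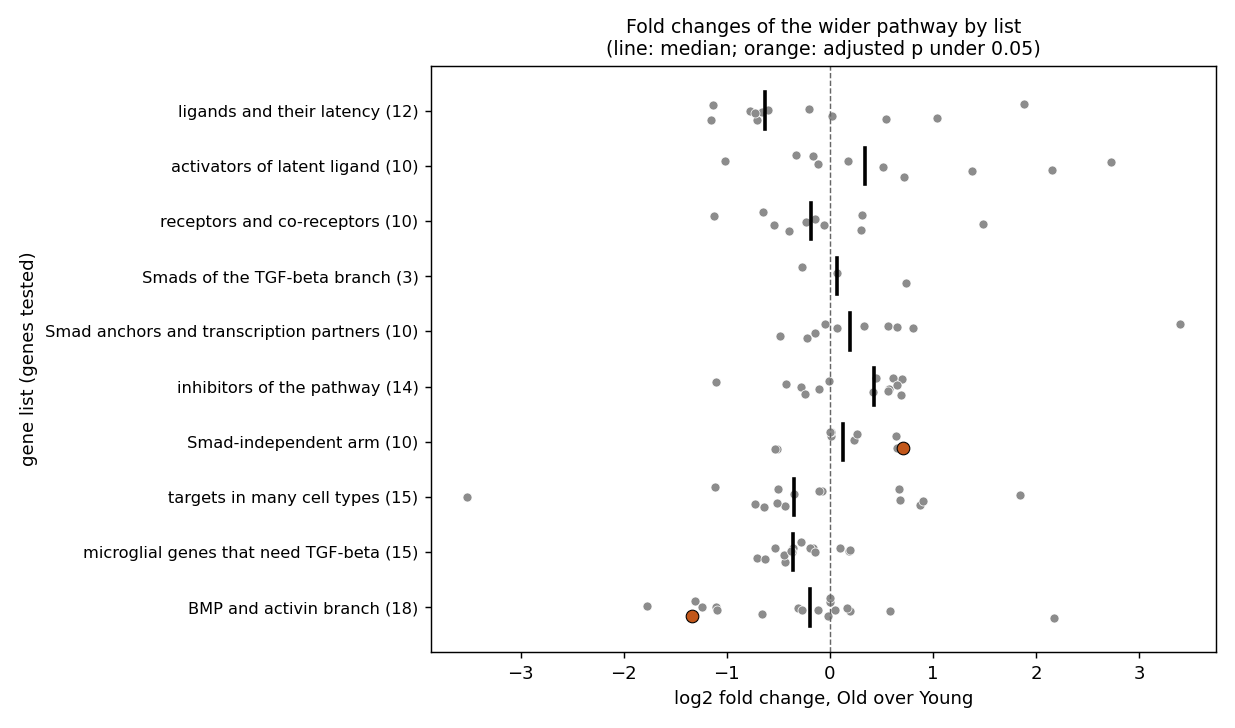
Log2 fold change of Old over Young for each tested gene of 10 pathway lists (points, offset up and down at random for legibility), with the median of the list as a black line and genes past an adjusted p of 0.05 in orange, on a linear axis. The orange points are Rock1 and Bmp1, the medians run from -0.63 for ligands and latency to 0.43 for inhibitors, and a gene can stand in more than 1 list.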

How the data were processed

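The authors trimmed reads with skewer, checked them with FastQC 0.11.5, aligned them with STAR to GRCm38 and counted them with RSEM on GENCODE m15. The deposited tables hold expected counts, TPM, FPKM and lengths per gene; no molecular identifiers are named, so reads are not independent molecules. FPKM were not used. Expected counts of genes above 10 in at least 1 library, chromosomes X, Y and M left out (614 genes), were rounded and tested with edgeR 4.0.16 (quasi-likelihood, TMM, factors 0.952 to 1.05, Benjamini-Hochberg), the common biological coefficient of variation being 37.2%. TPM were compared by exact permutation of mean log2(TPM + 0.1) over 35 assignments. The study's own method, limma-voom (limma 3.58.1), DESeq2 1.42.0, other scalings and filters and each library left out were alternatives. The statistical steps were tested on simulated data.

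The 10 genes and all lists were chosen with earlier results of these data known. Genes named from the lists were those past the adjusted p of 0.05 and the 3 of smallest p per list, with Smad1, Smad5, P2ry12, Tmem119 and Csf1r. Slco1a4 and Tab2 were named after their values were seen. Pathway and marker lists share genes: most microglial markers, Fn1 and Thbs1 (monocytes) and Acta2 and Col1a1 (pericytes and fibroblasts). Ly6c1 is counted in both the endothelial and the monocyte marker sums, at 15.9 to 33.6 TPM in Young and 9.11 to 12.8 in Old (log2 fold change -1.24, edgeR adjusted p = 0.0768). Positions came from GENCODE vM21; the files' annotation m15 gave the same length for 93.5% of single-transcript genes. That each library is a separate mouse is taken from the study's methods.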

Additional observations from a re-analysis of the deposited data

Results flagged for a closer look

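Nrros in the Young group stood out because 1 library lay far from the others. Young 14C had 350.3 CPM against 284 to 294 in 18C, 23C and 29C, and the gap took 0.851 of the range of the group, above Dixon's 95% critical value for 4 samples. Of 35 such groups examined 1 was past that value, where chance gives about 1.75. Young 14C was also the highest Young library in TPM, at 213 against 167 to 178.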

How the results depend on the processing

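The 10 genes gave 0 calls in the edgeR quasi-likelihood test and 0 under 8 of 11 settings, 3 by DESeq2, 1 without a filter on low counts and 1 with effective length as an offset; at an unadjusted p under 0.05 there were 4. Calls over all genes numbered 141, and 318 by limma-voom with sample quality weights, 1403 by DESeq2, 288 without the filter, 213 with the length offset, 71 by limma on log2(TPM + 0.1) and 64 on log2(TPM + 1). The pathway lists gave 2 calls, and 0 with upper-quartile factors, 1 by limma-voom, 1 with X, Y and M kept, 1 by limma on log2(TPM + 0.1), 1 on log2(TPM + 1), 4 with quality weights, 4 without the filter, 4 with the length offset and 20 by DESeq2. With 1 library left out there were 1 (without Young 14C, Young 18C or Old 2posI) to 159 (without Old 3posI) calls over all genes, 0 of the 10 genes each time, and 0 to 4 in the pathway lists, the 4 again without Old 3posI.

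Among the 10 genes the direction turned for Tgfb2, Tgfbr1, Smad2 and Smad7. Tgfb2 (0.02 on the log2 scale) was -0.013 with upper-quartile factors, -0.041 by limma-voom, -0.0062 without the filter, -0.28 with the length offset, and -0.25 and -0.11 by limma on log2(TPM + 0.1) and log2(TPM + 1), and ran from -0.34 to 0.21 with 1 library left out. Tgfbr1 was 0.045 by limma-voom and ran from -0.35 to 0.25. Smad2 was -0.0081 with the length offset and -0.11 by limma on either TPM scale. Smad7 ran from -0.014 (without Old 4posI) to 0.74 (without Old 3posI). The fold changes of Tgfb1, Tgfb3, Nrros, Tgfbr2, Smad3 and Smad4 kept their sign in every setting and with each library left out. The causes were not tested. Transcript lengths and list medians without Old 3posI were added after seeing the data.

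No paired analysis was possible because the groups share no replicate numbers. With 4 and 3 libraries and a coefficient of variation of 37.2%, the 95% interval of Tgfbr1 still covers -1.17 to 1.06. Medians of the lists also moved with the setting. For ligands and latency (-0.63) the median was -0.31 by limma-voom, -0.32 with quality weights and -0.30 with the length offset. On log2(TPM + 0.1) and log2(TPM + 1) it was -0.32 and -0.11. With quality weights receptors went from -0.18 to -0.43 and activators from 0.35 to 0.12. On log2(TPM + 0.1) targets went from -0.35 to -0.56, and on log2(TPM + 1) inhibitors went from 0.43 to 0.20. Medians of other lists moved too. Tgfb2 rests on 30 to 73 expected counts per library.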
